A study of Mus musculus with 8 samples.

Results

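The arrays examined here compare pancreatic islets that lack insulin receptor substrate 2 with wild-type islets, in mice that drank plain distilled water. They were chosen by their titles: 2 arrays of untreated Irs2-/- islets and 2 arrays of untreated wild-type (WT) islets, which are 4 of the 8 arrays of the study. All mice were male, of the C57Bl/6 background, and 13 weeks old when the islets were taken, after 21 days on the assigned water from the age of 10 weeks. The other 4 arrays, 2 of each genotype, came from mice given sodium tungstate in the water over the same days, at a concentration that the description of the study and its sample labels write with different units. They serve below as a second look at the genotypes in other animals. The labels name only the genotype: they do not say how the Irs2 allele was made or whether it is absent from every tissue. The 2 samples of a group are described as independent, but the labels do not say whether each is 1 mouse or a pool, so a p-value reflects only how these samples vary, which may be technical in part.

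Irs2 is an adaptor protein that docks on the activated insulin and IGF-1 receptors and passes the signal to PI3 kinase and AKT. In beta cells this route supports growth, survival and the transcription factors that keep the cell able to sense glucose. Mice without Irs2 are insulin resistant and cannot expand their beta cells, and they are widely used as a model of type 2 diabetes with failing islets.

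Values are log2 expression, and a difference is Irs2-/- minus WT on that scale, given with the standard error (SE) of the fitted difference. That SE pools the spread of all 4 groups and is moderated with the spread of other genes. A gene is said to rise, fall or change where its limma p, adjusted over all 13369 genes tested, was under 0.05. Values of single arrays are given in the order of replicate 1 and replicate 2.

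Irs2 itself read 7.91 and 7.73 on the WT arrays and 4.54 and 4.89 on the Irs2-/- arrays. The difference was -3.10 ± 0.16 (adjusted p = 0.00021), and the Irs2-/- values lay below 5.27, the mean level under which genes were left out of the tests. Whether the probe set lies inside the deleted stretch is not stated by the labels, so how far this level checks the genotype labels is not known. Genes that flank Irs2 on chromosome 8 showed no common shift. Of the 10 RefSeq genes on each side, 7 were tested, and 2 of these rose, the collagen gene Col4a2 by 0.51 ± 0.12 and the metabolite repair gene Naxd by 0.62 ± 0.13, while 0 fell. Col4a1, which shares its promoter region with Col4a2, differed by -0.08 ± 0.12 (adjusted p = 0.71). Within 40 genes on each side, 19 were tested, of which 2 rose and 3 fell.

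In untreated islets 2245 of the 13369 genes changed (16.8%), 1106 of them higher (8.27%) and 1139 lower (8.52%) without Irs2. The median difference over all genes tested was -0.01. The higher genes moved further: 435 of them rose at least 2-fold against 190 that fell as far, and 104 rose at least 4-fold against 20 that fell as far. The median of the genes that rose was 0.85 and that of the genes that fell -0.66. The genotype lay along the first principal component of the 4 arrays, which held 72.4% of the variance, and replicates correlated at r = 0.98 in both groups across genes. The 18S ribosomal RNA control probe sets read 11.75 and 12.70 on the WT arrays and 11.05 and 10.63 on the Irs2-/- arrays. This control thus separated the same arrays as the genotype, and its bearing on the differences was not tested. The arrays also differed in exocrine tissue: the mean level of 26 acinar marker genes was 8.09 and 11.13 on the WT arrays and 10.85 and 11.84 on the Irs2-/- arrays. With this level as a covariate 1398 genes changed, 922 higher and 476 lower. Without 1 of the 4 arrays the count fell to 912 and 652 (WT replicate 1 and 2 left out), 761 (Irs2-/- replicate 1) and 1609 (Irs2-/- replicate 2).

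The text therefore turns mainly on 438 genes (3.28%) that passed the test on all arrays and again with each of the 4 untreated arrays left out in turn, called robust genes below. Of them 247 were higher without Irs2, 197 by at least 2-fold, and 191 were lower, 115 by at least 2-fold. The gene lists written for islets held 94 of them, and 344 were on no list.

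**Figure D1:**
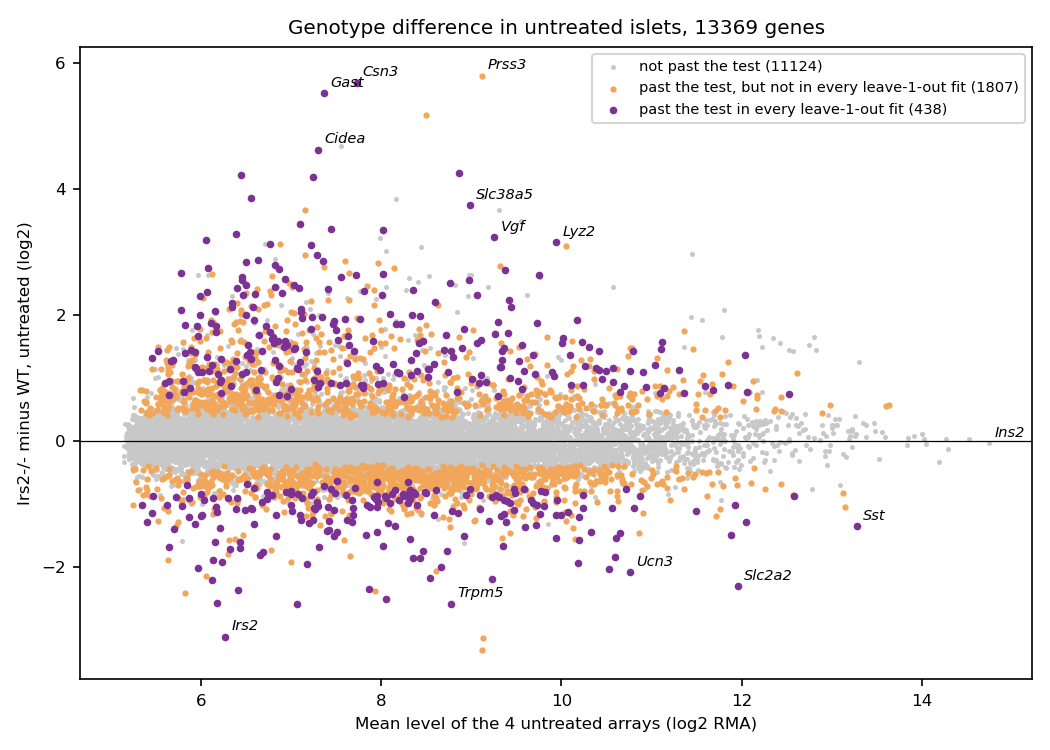
Each point is 1 of the 13369 genes tested, with its mean log2 level on the 4 untreated arrays on the horizontal axis and the Irs2-/- minus WT difference (log2) on the vertical axis. The 438 robust genes (purple) reach from -3.10 for Irs2 to 5.69 for Csn3, and the differences above 3 lie far more often on the higher than on the lower side.

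The largest robust differences were of genes with little or no signal in WT islets. Taking as switched a gene below 5.27 on both arrays of one genotype and at least 2 units above it on both arrays of the other, 7 genes came on without Irs2 and 2 went off. Csn3, a milk protein gene that is known as a target of prolactin signalling, read 4.86 and 4.91 on the WT arrays and 10.52 and 10.62 on the Irs2-/- arrays. Gast, which encodes the stomach hormone gastrin and is expressed in fetal but hardly in adult islets, read 4.53 and 4.69 against 10.00 and 10.26. These differences were 5.69 ± 0.39 for Csn3 and 5.52 ± 0.13 for Gast, and in neither gene did the groups come near each other. Cidea, a lipid droplet protein of brown fat, rose from 4.92 and 5.05 to 9.46 and 9.76. Sorcs1, a sorting receptor tied to secretory granule replenishment and to diabetes loci in mice, rose from 4.37 and 4.29 to 8.45 and 8.65. The chemokine gene Cxcl9, the membrane protein gene Tmem45b and the uncharacterised Gm2115 made up the rest of the genes that came on. Irs2 and Cttnbp2, a cortactin-binding protein of synaptic spines, were the genes that went off. Cttnbp2 read 7.46 and 7.47 on the WT arrays and 5.14 and 4.66 on the Irs2-/- arrays. Its other probe set above the filter level differed by only -0.34, so the switch holds for the probe set used and not for both. In the genes that came on, the low WT values hold mostly background signal. Those folds therefore depend on how the arrays read a gene that is hardly there.

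**Figure D2:**
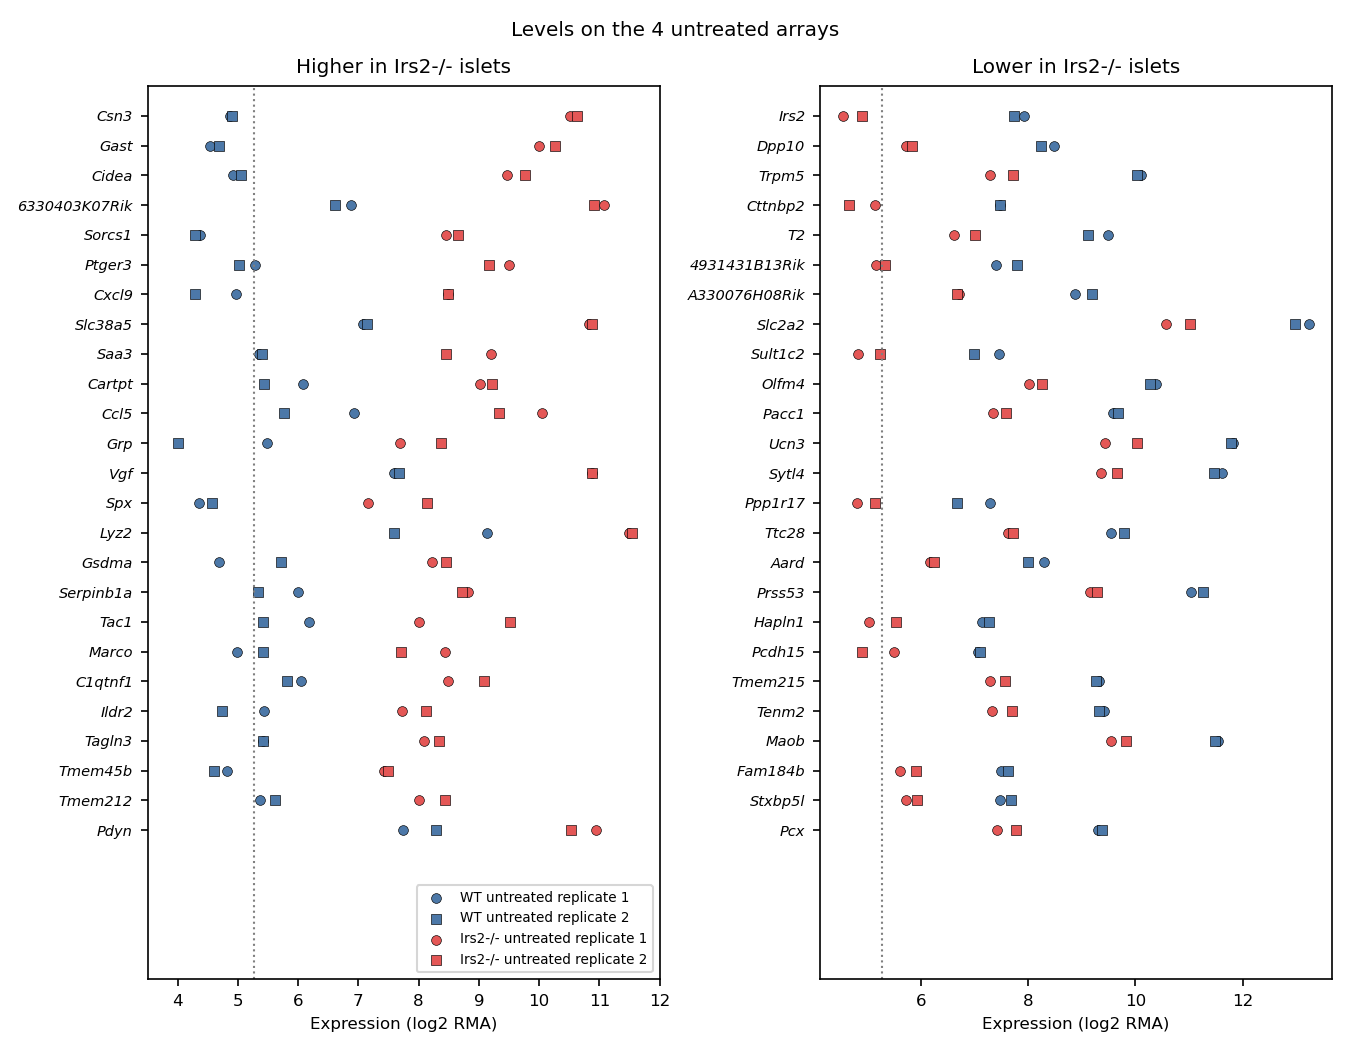
The log2 levels of the 25 robust genes with the largest rise (left) and the 25 with the largest fall (right) on the 4 untreated arrays are shown, blue for WT and red for Irs2-/-, circles for replicate 1 and squares for replicate 2, with the dotted line at the filter level of 5.27. In every row the red and the blue points are apart, but the genes were picked for large differences on these arrays. Over all genes tested, the arrays of the genotypes did not overlap in 60.6%. For Csn3, Gast and Cidea both WT points lie left of the line.

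Peptide hormone and neuropeptide precursors were among the genes that rose furthest. Of 32 tested, 13 rose and 3 fell, and the list's median was 0.24. This did not rest on a single array, since 10 or 11 members rose when any 1 of the 4 arrays was left out. Beside Gast stood Grp, the gastrin-releasing peptide (5.49 and 4.00 on the WT arrays, 7.68 and 8.36 on the Irs2-/- arrays), and Cartpt, the CART prepropeptide (6.09 and 5.44 against 9.02 and 9.22). CART is known to appear in beta cells of diabetic rodents. Vgf, the precursor of granule peptides that promote insulin secretion, read 7.60 and 7.68 against 10.87 and 10.87, a difference of 3.23 ± 0.16. The spread between replicates was small in Vgf and wide in Grp, where the WT arrays alone differed by more than 1 unit. Tac1, the precursor of substance P, rose by 2.96 ± 0.46, and Pdyn, that of the dynorphin opioids, by 2.72 ± 0.30. Spx, encoding spexin, rose by 3.19 ± 0.33, Nmb, encoding neuromedin B, by 2.13 ± 0.14, and Nucb2, the precursor of nesfatin, by 1.36 ± 0.15. Vip rose by 2.78 ± 0.68 and Gal by 1.86 ± 0.46, but Vip kept its call in only 1 and Gal in 2 of the 4 fits without an array. The precursors that fell were Ucn3, Edn3 and Pcsk1n. Th, the rate-limiting enzyme of catecholamine synthesis, rose as well, from 7.30 and 7.38 to 9.46 and 9.23.

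Genes of beta cell identity and glucose sensing moved the other way. Of 24 tested, 13 fell and 1 rose, with a median of -0.91, and 8 to 13 fell when any 1 array was left out. Slc2a2, the glucose transporter GLUT2, read 13.24 and 12.97 on the WT arrays and 10.58 and 11.03 on the Irs2-/- arrays, a difference of -2.30 ± 0.36, or 4.94-fold. Trpm5, a cation channel that shapes electrical activity in glucose-stimulated beta cells, read 10.10 and 10.03 against 7.28 and 7.71. Ucn3, urocortin 3 and a marker of mature beta cells, read 11.82 and 11.78 against 9.43 and 10.03. The arrays of the genotypes were apart by more than 1.5 units in each of these genes. Slc30a8, the zinc transporter of insulin granules, fell from 12.72 and 12.55 to 11.05 and 11.23. Pcx, pyruvate carboxylase, which feeds pyruvate into the citrate cycle, fell by 1.75 ± 0.14. Sytl4, the granule protein granuphilin, fell by 2.03 ± 0.31, and Ppp1r1a, an inhibitor of protein phosphatase 1, by 1.53 ± 0.20. The receptor of the incretin GLP-1, Glp1r, read 6.63 and 7.76 on the WT arrays and 5.44 and 5.38 on the Irs2-/- arrays, and that of GIP, Gipr, fell by 1.08. Glp1r kept its call in 3 and Gipr in 1 of the 4 fits without an array. The member that rose was Pcsk1, a prohormone convertase, by 0.59. In whole islets, fewer beta cells and less RNA of these genes per beta cell cannot be told apart.

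The hormone genes themselves were at the top of the range of the arrays. Ins2 read 14.75 and 14.75 against 14.74 and 14.72 (difference -0.03 ± 0.10), Iapp 14.50 and 14.50 against 14.53 and 14.55, and Gcg 14.38 and 14.33 against 14.15 and 14.31. None of the 7 genes with a mean of at least 14 on the untreated arrays changed, and the highest value of any tested gene on any array was 14.75, that of Ins2, so how far these probe sets can still report a change was not tested. Somatostatin, Sst, lay only slightly lower and fell clearly, from 13.95 and 13.95 to 12.44 and 12.75, a difference of -1.35 ± 0.13 (adjusted p = 0.0018) with both Irs2-/- arrays more than 1 unit below the WT arrays. Hhex, the transcription factor of somatostatin-producing delta cells, fell by 0.60 ± 0.15 (adjusted p = 0.034), a call that was lost without any 1 of the 4 arrays. Ppy, pancreatic polypeptide, differed by -0.33 ± 0.12 (adjusted p = 0.088).

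Of 27 islet transcription factors tested, 7 fell and 0 rose, with a median of -0.30. Nkx6-1, which keeps beta cells from taking on other endocrine fates, read 10.87 and 10.72 on the WT arrays and 9.42 and 9.76 on the Irs2-/- arrays and was the one robust gene of the list. Pdx1, the master regulator of insulin and Slc2a2 transcription, read 10.10 and 10.17 against 9.21 and 9.59. Neurod1 fell by 0.87 ± 0.15, Insm1 by 1.17 ± 0.25 and Foxa2 by 0.73 ± 0.13. Pdx1, Neurod1, Insm1 and Foxa2 each lost their call in at least 2 of the 4 fits without an array, in which 1 to 6 of the list fell. Differences that did not pass were -0.06 ± 0.19 for Isl1, -0.18 ± 0.12 for Nkx2-2 and -0.32 ± 0.13 for Pax6.

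A list of genes that are normally silent in adult beta cells went up with 10 of 22 tested against 1 that fell, and a median of 0.88. Neurog3 and Sox9, also on the list, differed by -0.03 ± 0.35 and 0.03 ± 0.16. Apart from Gast, Aldh1a3, a marker of dedifferentiated beta cells, read 5.57 and 5.79 against 9.10 and 8.15, a difference of 2.95 ± 0.55 that passed in 1 of the 4 fits without an array. Ldha, lactate dehydrogenase A, rose by 1.84 ± 0.40, with the WT arrays at 8.17 and 6.99 and the Irs2-/- arrays at 9.85 and 8.99. Hk2, a high-affinity hexokinase, rose less but in each of these fits, from 5.27 and 5.29 to 6.07 and 5.95. Fbp2, a fructose bisphosphatase of muscle, rose by 1.59. With 1 array left out 3 to 9 members rose, and many of these genes are also expressed in the immune, stromal or exocrine cells described below.

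Enzymes that steer glucose carbon moved in both directions. Pfkfb3, which makes an activator of glycolysis, rose by 2.19 ± 0.26, to 7.74 and 7.13, and Pdk1, which shuts pyruvate dehydrogenase, rose by 1.12 ± 0.14. Pfkfb2, the islet form of the same enzyme family, fell by 0.95. Of 28 glycolysis genes 6 rose and 3 fell, or 3 to 5 and 1 to 3 with 1 array left out, and of 34 genes of the citrate cycle and its filling reactions 1 rose and 5 fell, or 0 and 2 to 3. The share past the test was 32.1% of the glycolysis list and 17.6% of the citrate cycle list, against 16.8% of all genes. Gpd2, the mitochondrial glycerol phosphate dehydrogenase, fell by 0.95 ± 0.15, beside the fall of Pcx. Respiratory chain subunits hardly took part, with 3 up and 1 down of 61. The largest difference there was that of Cox6a2, a muscle-type subunit, at 10.63 and 10.75 on the WT arrays and 7.00 and 8.12 on the Irs2-/- arrays, which passed in 1 of the 4 fits without an array.

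Lipid genes split by task. Of 34 genes of cholesterol and fatty acid synthesis 10 fell and 1 rose, with a median of -0.31, and 5 to 8 fell with any 1 array left out. Scd2, a fatty acid desaturase, read 10.99 and 10.98 on the WT arrays and 9.38 and 9.43 on the Irs2-/- arrays. Insig1, which holds the sterol sensor in the endoplasmic reticulum, fell by 1.17 ± 0.18, Msmo1, a sterol oxidase, by 1.02 ± 0.15, and Idi1, an isomerase early in the sterol route, by 0.93 ± 0.15. Srebf1, the transcription factor of the fatty acid branch, fell by 0.68 ± 0.14 and passed in 1 of the 4 fits. Of 26 lipid droplet and lipase genes 8 rose and 1 fell, or 3 to 6 and 0 to 2 with 1 array left out. Fabp5, a fatty acid carrier, read 7.90 and 7.50 against 10.50 and 10.01, beside the Cidea values above. Pla2g7, a phospholipase of macrophages, rose by 2.08, and Fabp4, a carrier of adipocytes and macrophages, by 1.78 ± 0.43. Of 7 adipocyte markers tested, Cidea and Fabp4 rose.

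Of 35 genes of insulin and IGF signalling, 6 fell, Irs2 among them, and 1 rose, or 2 to 3 and 0 to 2 with 1 array left out. Insr, the insulin receptor, read 8.58 and 8.33 against 8.02 and 7.95 and passed narrowly (adjusted p = 0.048), with no call once any 1 array was left out. Insrr, the insulin receptor-related receptor, read 8.44 and 8.20 against 7.03 and 7.02, a robust difference of -1.29 ± 0.13. Irs1, the sister adaptor, read 8.42 and 8.06 against 7.49 and 7.65, a difference of -0.67 ± 0.20 that missed the threshold (adjusted p = 0.055). Igf1r differed by 0.27 ± 0.20 and Foxo1 by -0.20 ± 0.16, both with arrays of the genotypes that overlapped. Of this insulin and IGF list 20% passed the test, Irs2 included, close to the 16.8% of all genes. Ccnd2, cyclin D2, which beta cells need in order to divide, fell by 0.86 ± 0.11, from 13.06 and 12.97 to 12.24 and 12.06, and all its 6 other probe sets above the filter level moved the same way. Of 21 ERK feedback genes, which the RAS to MAP kinase branch induces, 4 rose and 0 fell. That is 19%, also close to the 16.8% of all genes, and 2 of them were robust genes. Dusp6, a phosphatase of ERK, read 8.34 and 8.26 against 10.50 and 10.59, and Dusp4 read 6.38 and 6.29 against 8.32 and 7.90.

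Amino acid handling changed gene by gene. Slc38a5, a glutamine transporter that is induced in alpha cells when amino acids are high, rose from 7.07 and 7.14 to 10.83 and 10.88, a difference of 3.75 ± 0.37. Slc1a5, another glutamine carrier, rose by 1.10 ± 0.12. Slc7a2, a carrier of arginine and lysine, fell by 1.06 ± 0.16, Slc1a4 by 1.09 ± 0.14, and Slc7a5, the large neutral amino acid carrier, by 0.76. Together 4 of 25 transporters rose and 5 fell, or 3 to 4 and 3 with 1 array left out. Atf5, a transcription factor of the stress response to missing amino acids, read 10.13 and 10.25 against 8.56 and 8.49, and the serine and one-carbon enzyme Mthfd2 read 10.43 and 10.34 against 9.14 and 8.97. Aars, an aminoacyl-tRNA synthetase, fell by 0.83 ± 0.12, and Asns, asparagine synthetase, by 0.68 ± 0.12. These genes are known targets of ATF4, and Mthfd2 and Aars were named after their values were seen. They are not a count of all ATF4 targets, and whether ATF4 activity differed was not tested. Some other genes of the unfolded protein response moved upward: Edem1, which sends misfolded proteins for degradation, rose by 1.49 ± 0.17, and Derl3 by 1.14 ± 0.18. Of the unfolded protein and integrated stress response list 20.5% passed the test, against 16.8% of all genes. The chaperone Hspa5 differed by 0.20 ± 0.22 and the stress marker Ddit3 by 0.13 ± 0.35, so that of 39 genes of the whole response 6 rose and 2 fell, or 2 to 7 and 1 to 2 with 1 array left out.

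Of 40 ion channels tested, 7 fell and 3 rose, 31 had a negative difference, and the median was -0.21 against -0.01 over all genes. With any 1 of the 4 arrays left out 2 to 7 fell and 2 to 3 rose. Kcnj12, an inward rectifier, read 6.83 and 7.09 against 5.29 and 5.42, and the L-type calcium channel gene Cacna1c fell by 0.88 ± 0.19. The subunits of the ATP-sensitive channel, which closes when glucose is burned, gave differences of -0.03 ± 0.13 for Kcnj11 and -0.11 ± 0.12 for Abcc8. Of 46 exocytosis and granule genes 9 fell and 7 rose, or 4 to 8 and 1 to 5 with 1 array left out, and the median was -0.01. Stxbp5l, the vesicle fusion regulator tomosyn-2, read 7.47 and 7.67 against 5.71 and 5.92, and Cadps, a priming factor of dense granules, fell by 0.94 ± 0.12. Ptprn, a granule membrane protein, rose by 1.14. Gad1, the enzyme that makes GABA in beta cells, read 11.05 and 10.52 against 7.60 and 7.33, a difference of -3.32 ± 0.58 that passed in 3 of the 4 fits, and Maob, a monoamine oxidase, read 11.54 and 11.48 against 9.54 and 9.83. Among 33 G protein-coupled receptors 7 rose and 4 fell, or 1 to 6 and 0 to 4 with 1 array left out. Ptger3, the prostaglandin E2 receptor that lowers cAMP and insulin secretion, read 5.28 and 5.02 against 9.50 and 9.17, a difference of 4.19 ± 0.39.

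Of the 3 metallothioneins tested, which are zinc-binding proteins, Mt1 and Mt2 fell and Mt3, the form best known from the brain, rose by 0.79 ± 0.15. Mt1 read 12.96 and 12.43 on the WT arrays and 11.36 and 11.44 on the Irs2-/- arrays, and Mt2 read 11.92 and 11.25 against 10.09 and 10.16. The zinc transporter Slc39a11 rose by 1.78 ± 0.20, and of the 22 genes of this list 2 rose and 4 fell, or 1 to 2 and 2 to 3 with any 1 of the 4 arrays left out.

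Some robust falls were of genes of the cell surface and of adhesion. Dpp10, a potassium channel partner, read 8.47 and 8.24 against 5.71 and 5.83. Pcdh15, a protocadherin, read 7.06 and 7.09 against 5.50 and 4.90, and Tenm2, a teneurin, 9.40 and 9.32 against 7.33 and 7.70. The Slit receptors Robo1 and Robo2, which hold islet cells in their order, fell by 1.67 ± 0.23 and 1.28 ± 0.18. Of 41 axon guidance and adhesion genes 7 fell, 3 of them robust genes, and 8 rose, Ntn1, netrin 1, by 1.32, and the list's median was 0.02. With 1 array left out 3 to 5 fell and 1 to 5 rose. Among 148 families of genes that share a symbol stem and have at least 10 tested members, 4 had more than 40% of their members past the test, a share set after the values were seen. Cadherins were one of them, with 5 of 14 lower and 1 higher. Cdh8 fell by 1.69, Cdh7 fell by 1.39 and Cdh22 fell by 1.02.

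Another of these families was that of the intraflagellar transport genes, which build cilia. Of 14 Ift genes 7 fell and 0 rose, and with the Bbs genes of the cilium's cargo complex, counted after their values were seen, 11 of 23 fell and 0 rose, with a median of -0.42. Ift172 read 7.78 and 7.76 against 6.89 and 6.72, Bbs1 read 7.88 and 7.69 against 6.72 and 6.73, and Ttc8, which is also called Bbs8, read 9.52 and 9.52 against 8.67 and 8.65. In each of them the replicates differed by less than 0.2. The ciliary genes Cep290 and Lca5 fell by 0.90 ± 0.13 and 0.90 ± 0.14. Most of the other falls were smaller, and 3 of the 11 were robust.

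The family with the largest share past the test was that of the cathepsins, lysosomal proteases, with 8 of 14 higher and 0 lower. Their symbols end in letters, and they were added to the families by hand after their values were seen. Ctsh read 7.94 and 6.94 on the WT arrays and 9.53 and 9.30 on the Irs2-/- arrays, and Ctsc 7.66 and 6.92 against 9.30 and 8.99. Ctss, a protease of antigen-presenting cells, read 10.10 and 9.87 against 11.13 and 11.17. The lysosomal protease gene Lgmn rose by 1.93 ± 0.21. The remaining family was Alg, enzymes that build the sugar tree of glycoproteins, with 4 of 12 higher and 2 lower. Alg5 rose by 1.55. Other genes of the early secretory route, named after their values were seen, were Kdelr3, a retrieval receptor, at 6.92 and 7.25 against 8.96 and 9.24, and Fkbp11, a folding enzyme of secretory cells, at 8.78 and 9.64 against 10.93 and 11.33. Acinar and plasma cells also express much of this machinery. The mean acinar level was 8.09 and 11.13 on the WT arrays and 10.85 and 11.84 on the Irs2-/- arrays, with 2 of 26 markers past the test, and that of B and plasma cell markers 7.24 and 5.33 against 8.76 and 7.73, with 4 of 18. Their part in these rises was not tested.

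Markers of macrophages and dendritic cells formed the group in which the largest share of members rose. Of 35 tested, 29 rose, 0 fell and all 35 had a positive difference, with a median of 1.40. The mean level of the list was 7.40 and 6.96 on the WT arrays and 8.59 and 8.54 on the Irs2-/- arrays. Lyz2, lysozyme of myeloid cells, read 9.14 and 7.59 against 11.49 and 11.54, and Cd68, a macrophage lysosomal protein, 5.44 and 5.08 against 7.15 and 7.02. The complement gene C1qa read 9.80 and 9.80 against 10.91 and 11.01, and Marco, a scavenger receptor, 4.98 and 5.41 against 8.44 and 7.71. Adgre1, which encodes the F4/80 antigen, rose by 0.79 ± 0.15 and Itgax, CD11c, by 0.76 ± 0.12. With any 1 array left out 18 to 28 of the list rose, and 28 rose with the acinar level as a covariate.

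Lymphocyte markers were also higher, but the arrays of a group differed more. Of 18 T and NK cell markers 7 rose, with mean levels of 6.36 and 5.60 on the WT arrays and 7.92 and 7.08 on the Irs2-/- arrays. Nkg7, a granule protein of cytotoxic cells, rose by 1.83 ± 0.21, and Cd3g, of the T cell receptor complex, read 5.42 and 4.19 against 8.20 and 6.70. Of 18 B and plasma cell markers 4 rose (22.2%, against 16.8% of all genes past the test). Their mean level was 7.24 and 5.33 on the WT arrays and 8.76 and 7.73 on the Irs2-/- arrays, so replicate 1 was the higher array of both genotypes. The immunoglobulin gene Iglv1 reached 12.87 on Irs2-/- replicate 1, against 9.30 on replicate 2 and 7.44 and 4.39 on the WT arrays. Without Irs2-/- replicate 1, 1 T and NK marker and 0 B and plasma cell markers rose, and without WT replicate 2 it was 3 and 0.

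Chemokine genes rose with 11 of 30 against 0 that fell, and 5 to 15 rose with 1 array left out. Cxcl9, a ligand of the T cell receptor CXCR3 that interferon gamma induces, read 4.97 and 4.29 on the WT arrays and 8.49 and 8.49 on the Irs2-/- arrays. Ccl5 read 6.92 and 5.76 against 10.05 and 9.33, and Ccl8 read 5.33 and 5.03 against 7.03 and 8.20. Cxcr3 itself rose by 0.97 ± 0.11. Of 23 inflammatory and acute phase genes 6 rose, or 2 to 9 with 1 array left out. Saa3, a serum amyloid protein made in tissues, read 5.35 and 5.41 against 9.19 and 8.45, and Cfb, complement factor B, 6.09 and 5.72 against 7.85 and 7.43.

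Of 43 genes of the interferon response and class I antigen presentation 15 rose and 0 fell, with a median of 0.51. This count leaned on single arrays: 0 rose without WT replicate 2, 2 without Irs2-/- replicate 1, 10 without WT replicate 1 and 18 without Irs2-/- replicate 2, and none of the 15 was a robust gene. Gbp2, a guanylate-binding protein, read 5.97 and 5.28 on the WT arrays and 8.44 and 7.12 on the Irs2-/- arrays. B2m, the light chain of class I molecules, read 11.56 and 10.95 against 12.51 and 12.13. Psmb8, a subunit of the immunoproteasome, rose by 1.40 ± 0.23, and with it Psmb9 and Psmb10. Replicate 1 was the higher array within both genotypes for Gbp2, B2m and Psmb8, in the same order as the lymphocyte markers, whose part in this group was not tested.

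Interferons act through 2 short DNA motifs, the response element core GAAANNGAA and the gamma-activated site TTCNNNGAA, and the promoters of this group were searched for them. The promoter sequences are from RefSeq (GRCm38.p6) and the search covered the 250 bases before each gene's start on both strands. Of 10765 tested genes with a promoter sequence, 7.23% held GAAANNGAA and 7.00% TTCNNNGAA. Of the 34 tested interferon genes with a sequence, 15 held the former (44.1%) and 10 the latter (29.4%), and 20 held at least one of them (58.8%, against 13.4% of all). Of the 11 interferon genes with a sequence that rose, 5 held either motif, namely B2m, Gbp2, Gbp3, Irf8 and Psmb8. That is 45.5%, below the 58.8% of the whole list, and for GAAANNGAA alone it was 27.3% against 44.1%. Among all 1773 genes with a sequence that changed, 8.35% held GAAANNGAA, close to the share of all genes. A match is a description of letters and not a measured binding site. These motifs were followed further after the shares of 9 motifs in 6 gene lists had been seen, and other spellings of some motifs had been tried as well. The sequences of 4 genes that rose are printed for the position of the motif, Cxcl9, Gbp2 and B2m being chosen because they hold one, whose letters are in capitals, each read 5′ to 3′ toward the gene.
Cxcl9 (chr5:92328080-92328329, minus strand): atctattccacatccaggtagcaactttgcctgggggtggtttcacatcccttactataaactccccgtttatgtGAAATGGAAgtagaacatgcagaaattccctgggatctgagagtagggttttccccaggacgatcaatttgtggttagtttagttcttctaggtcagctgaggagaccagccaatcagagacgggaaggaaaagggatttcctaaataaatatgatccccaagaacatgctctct
Gbp2 (chr3:142620413-142620662, plus strand): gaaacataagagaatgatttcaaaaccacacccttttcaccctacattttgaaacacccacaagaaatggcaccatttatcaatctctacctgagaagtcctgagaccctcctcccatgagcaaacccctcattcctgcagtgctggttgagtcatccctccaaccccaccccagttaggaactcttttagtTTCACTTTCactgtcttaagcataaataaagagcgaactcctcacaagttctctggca
B2m (chr2:122147437-122147686, plus strand): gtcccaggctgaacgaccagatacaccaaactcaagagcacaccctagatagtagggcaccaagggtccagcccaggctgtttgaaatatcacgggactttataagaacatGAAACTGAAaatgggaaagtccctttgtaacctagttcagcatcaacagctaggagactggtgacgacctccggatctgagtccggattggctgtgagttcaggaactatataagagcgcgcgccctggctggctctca
Gast (chr11:100334157-100334406, plus strand): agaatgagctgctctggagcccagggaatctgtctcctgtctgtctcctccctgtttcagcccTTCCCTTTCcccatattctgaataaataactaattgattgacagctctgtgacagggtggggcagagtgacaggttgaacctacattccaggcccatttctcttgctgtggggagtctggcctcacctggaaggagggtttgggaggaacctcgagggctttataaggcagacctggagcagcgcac

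The match begins 175 bases before the start in Cxcl9, 58 in Gbp2, 139 in B2m and 187 in Gast. In Gbp2 and Gast it lies on the other strand, so the capitals show its reverse complement. Cxcl9 and Gast are not on the interferon list. Cxcl9 is a chemokine gene, and of 23 tested chemokine and receptor genes with a sequence 4 held GAAANNGAA (17.4%). Gast is shown because it rose furthest among the robust genes with a promoter sequence, and none was given for Csn3.

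Most exocrine, duct and stromal markers had positive differences as well, but those of the acinar and stromal markers were for the most part within the spread of the arrays. The share past the test was 7.69% for acinar markers, 17.6% for fibroblast, stellate cell and pericyte markers and 37.5% for duct markers, against 16.8% of all genes. All but 1 of the 26 acinar markers had a positive difference and their median was 1.65, but 2 passed the test, and WT replicate 1 read far below WT replicate 2. The trypsin gene Prss2 read 9.66 and 13.39 on the WT arrays and 12.60 and 13.73 on the Irs2-/- arrays, and without WT replicate 2 21 of the markers rose. Prss3, another trypsin gene, gave the largest difference of any called gene, 5.80 ± 1.54, at 4.90 and 7.54 against 10.83 and 13.20, and lost its call without any 1 of the 4 arrays. The 5 tested Reg genes, secreted proteins of stressed exocrine tissue, had a median of 2.09 and none passed, with mean levels of 5.63 and 8.98 against 8.83 and 10.48. Of 16 duct markers 6 rose, at mean levels of 8.27 and 8.44 against 8.89 and 8.92, and 0 to 2 rose with 1 array left out. Of 23 endothelial markers 5 rose and 1 fell, or 2 to 4 and 0 to 1 with 1 array left out. Ramp2, a co-receptor of adrenomedullin, rose from 7.90 and 7.84 to 9.62 and 9.49, and Esm1, a secreted proteoglycan, was the one that fell, by 0.65 ± 0.13. Of 34 markers of fibroblasts, stellate cells and pericytes 5 rose and 1 fell. Sparc, a matrix protein, rose by 0.89 ± 0.13, and Col6a3, a collagen, was the one that fell, by 0.90 ± 0.23. Of this list 13 rose without WT replicate 1, 1 rose and 2 fell without WT replicate 2, 2 rose without Irs2-/- replicate 1 and 3 without Irs2-/- replicate 2, and 22 rose with the acinar level as a covariate.

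**Figure D3:**
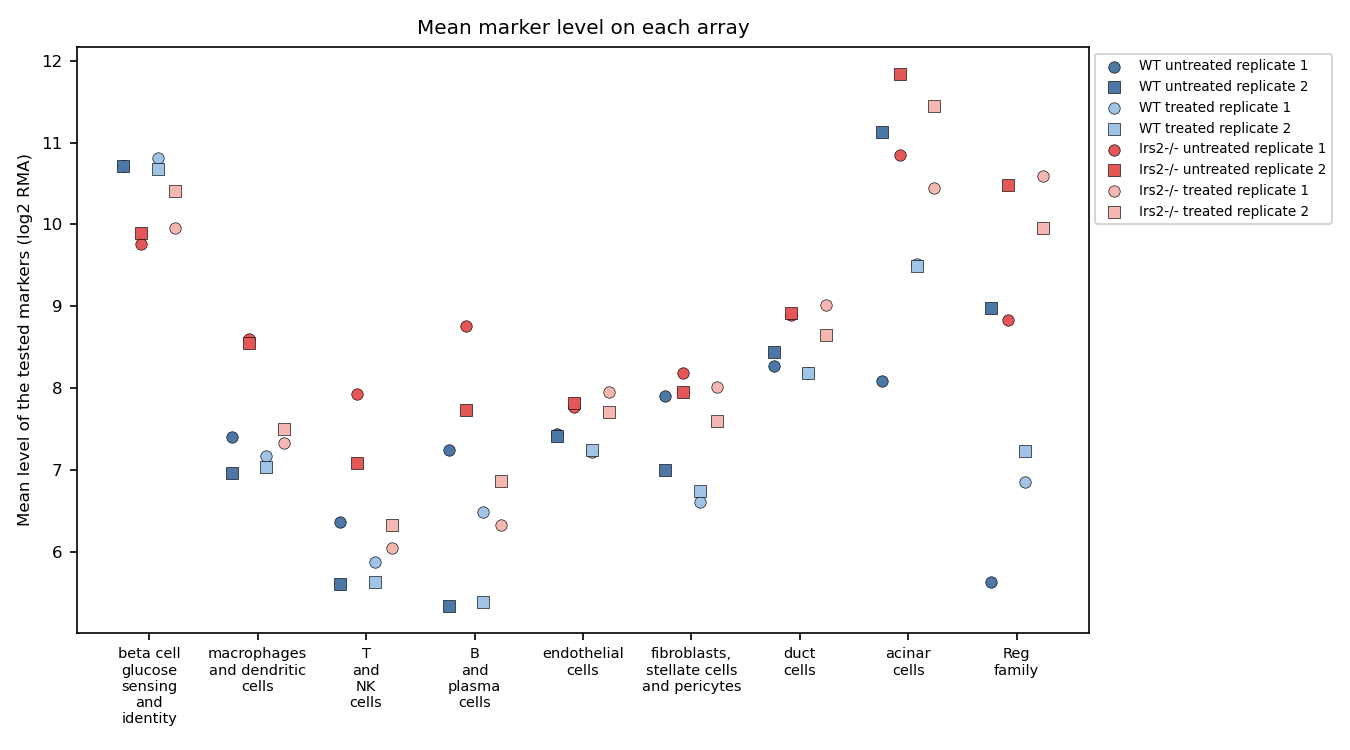
Each column is a list of marker genes and each point the mean log2 level of its tested members on 1 array, blue for WT and red for Irs2-/-, dark for untreated and pale for tungstate, circles for replicate 1 and squares for replicate 2. The untreated Irs2-/- arrays stand above the untreated WT arrays for macrophages (8.59 and 8.54 against 7.40 and 6.96) and below them for beta cell genes (9.76 and 9.89 against 10.72 and 10.71), whereas the acinar levels of the genotypes overlap.

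Cell cycle genes differed between the 2 untreated Irs2-/- arrays. Of 45 tested 5 rose and 1 fell, so 13.3% passed the test, against 16.8% of all genes. Their mean level was 7.00 and 6.86 on the WT arrays and 7.71 and 7.19 on the Irs2-/- arrays. The proliferation marker Mki67 read 6.76 and 6.13 on the WT arrays and 8.58 and 7.25 on the Irs2-/- arrays (adjusted p = 0.056). Rrm2, which supplies deoxynucleotides for replication, and Cdk6 were the robust members that rose, by 1.67 ± 0.24 and 1.09 ± 0.17. In immediate early genes 2 of 30 rose and 1 fell, so 10% passed the test, below the 16.8% of all genes. Their mean level was 8.16 and 7.90 on the WT arrays. It was 8.89 and 7.49 on the Irs2-/- arrays, above both and below both. Fos read 12.41 on Irs2-/- replicate 1 and 10.45 on replicate 2, against 12.31 and 11.86 on the WT arrays, and Npas4, an activity-induced factor, fell by 1.89 ± 0.52 with no call once any array was left out.

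Of 20 clock genes 4 fell and 0 rose, or 1 to 3 and 0 to 2 with 1 array left out, Clock from 8.90 and 8.91 to 8.06 and 8.12 and Per2 by 0.81 ± 0.16. The 39 tested ribosomal protein genes all had positive differences, with a median of 0.27, and 5 rose, while 0 passed with any 1 array left out. Their median stayed positive with arrays centred on their medians and after quantile normalization. Against 16.8% of all genes, 20% of the clock list and 12.8% of the ribosomal list passed the test. Of 34 proteasome subunits 7 rose, the largest rises being those of the immunoproteasome. None of the 7 was robust, and without WT replicate 2 the count was 0, without Irs2-/- replicate 1 it was 1, without WT replicate 1 it was 3 and without Irs2-/- replicate 2 it was 4. Nnt, a mitochondrial transhydrogenase that is disrupted in some C57Bl/6 substrains, read 9.98 and 9.74 against 9.25 and 9.36, so that both genotypes gave signal, and it fell by 0.55 ± 0.13 with no call once any 1 array was left out.

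**Figure D4:**
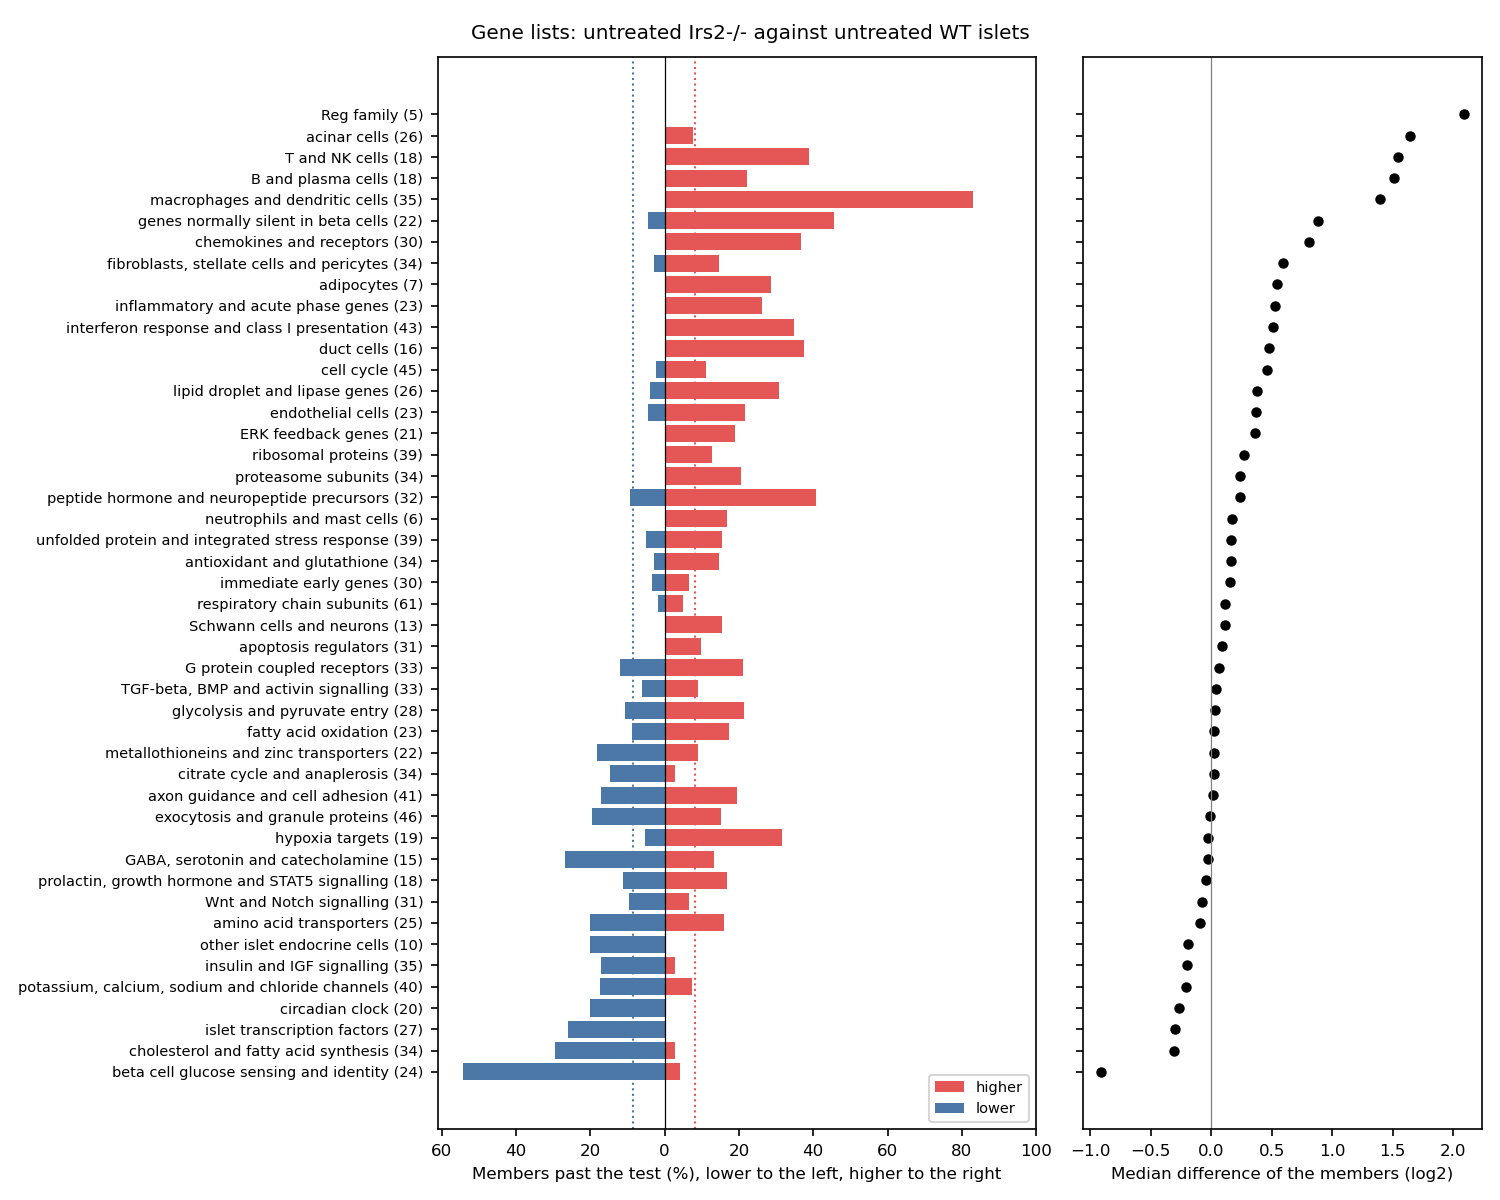
For each gene list with at least 5 tested members (number in brackets), bars give the percent of members that rose (red) or fell (blue) in untreated Irs2-/- islets, dotted lines the share of all genes that rose (8.27%) and fell (8.52%), and black points the median difference (log2). Macrophage and dendritic cell markers have the longest bar upward, with 29 of 35, and beta cell identity genes the longest downward, with 13 of 24.

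The tungstate arrays gave a second measurement of the genotypes in other mice, in which 137 genes (1.02%) passed the same test. That count was 3 and 4 without WT treated replicate 1 and 2, 18 without Irs2-/- treated replicate 1 and 679 without Irs2-/- treated replicate 2. Of the 247 robust genes that were higher on plain water, 243 had the same sign there, 224 had both Irs2-/- arrays above both WT arrays (22.4% of all genes did so), and 49 passed. Of the 191 lower genes, 190 had the same sign, 187 had both Irs2-/- arrays below both WT arrays (25.7% of all genes), and 45 passed. The differences were mostly smaller: the median was 1.43 on plain water and 0.66 under tungstate for the higher genes, and -1.06 and -0.62 for the lower. Since the robust genes were picked for their difference on plain water, a smaller one elsewhere is partly built into the choice. They were also picked with an SE that pools the spread of the tungstate arrays. This favours genes whose replicates lie close there, so the shares of all genes are not a like baseline for arrays that do not overlap. For the macrophage list the median was 1.40 on plain water and 0.20 under tungstate, and for the beta cell list it was -0.91 and -0.63.

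Some genes differed as much between genotypes under tungstate. Irs2 differed by -2.93, Dpp10 by -2.50, Tac1 by 3.28, Cartpt by 3.15 and Grp by 3.10, each close to its value on plain water. Others differed far less, Cxcl9 by 0.36, Ccl5 by 0.86 and Lyz2 by 0.91, though a test of the difference between the 2 genotype effects was passed by 3 genes alone (0.0224%), at the adjusted p under 0.05. They were Gast, Mfap3l and Nmb, and 0 genes passed without any 1 of the 4 WT arrays or without Irs2-/- untreated replicate 2. Under tungstate Gast read at 7.85 and 7.76 in Irs2-/- islets and below 5.27 on both WT arrays, still a difference of 3.15 ± 0.13. Mfap3l, a membrane glycoprotein, read 5.68 and 5.52 against 8.09 and 8.01 on plain water and 5.60 and 5.73 against 6.21 and 6.00 under tungstate. Nmb read 5.66 and 5.37 against 7.54 and 7.75 on plain water and 5.74 and 5.64 against 5.71 and 5.75 under tungstate. In Nmb the arrays of the genotypes overlapped under tungstate and were apart on plain water.

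**Figure D5:**
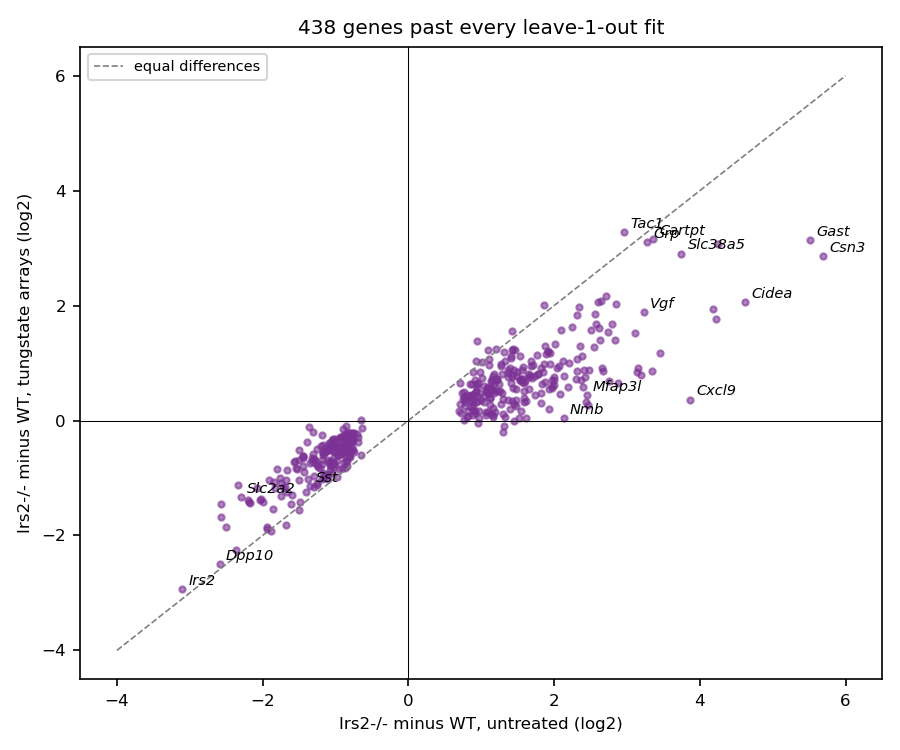
Each point is 1 of the 438 robust genes, with its Irs2-/- minus WT difference (log2) on plain water on the horizontal and under tungstate on the vertical axis, and the dashed line marks equal differences. Nearly all points share their sign, and most of the higher genes lie below the line, with medians of 1.43 and 0.66.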

How the data were processed

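Islet RNA was measured on 8 arrays, in 4 groups of 2. The authors summarised the signals with RMA (affy, R 2.7.0) per the submitters' processing notes and deposited log2 values for each probe set. Raw array files and scan dates were not analysed here. The platform annotation names 1 gene for 34945 of 45037 probe sets (64 controls aside), several for 932 and none for 9160. For each of 18193 genes the brightest probe set over all arrays was taken, and 4824 genes under the 40th percentile of the probe set means were dropped. A mean per group was fitted with limma 3.58.1 in R 4.3.3, moderated by empirical Bayes on 4 residual degrees of freedom, with Benjamini-Hochberg adjustment over the remaining genes. The median SE of a difference was 0.14, a precision limited by the number of arrays. The fit was tested on simulated data.

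Genes were named by rule: Irs2 first, up to 25 robust genes each way by size, genes switched on or off, up to 6 members per list, the neighbours of Irs2, genes past the test between treatments, and a fixed set of islet genes. Others were chosen after their values were seen. The members and the 47 lists were chosen with earlier results of these data known, and list counts are descriptions, not tests of lists. The promoter search also covered the metal response element TGCNCNC and its longer form TGCNCNCGG, the cAMP response element TGACNTCA, the AP-1 site TGANTCA, the E-box CACGTG, the NF-kB site GGGANTTCC and the sterol element TCACNCCAC, which can overlap one another. Longer or looser spellings of the sterol, metal and E-box motifs were also tried and are not reported.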

Additional observations from a re-analysis of the deposited data

Results flagged for a closer look

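A set of 3 genes was marked because their genotype difference on plain water differed from that under tungstate by a test of the difference itself (limma interaction). For Gast the difference between the 2 genotype effects was 2.37 ± 0.19 (adjusted p = 0.021), with both effects positive. For Mfap3l it was 2.01 (adjusted p = 0.026) and for Nmb 2.09 (adjusted p = 0.026). In each of these genes the 2 untreated Irs2-/- arrays read higher than the 2 treated Irs2-/- arrays, while the 4 WT arrays lay within 0.4 of one another. Groups of 2 arrays were too small for a test of outlying arrays.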

How the results depend on the processing

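The count of 2245 genes that changed on plain water was within 1.5 times of that value with no filter (2308), a stricter filter at the 60th percentile (2060), robust moderation with a trend (2333), only the 4 untreated arrays (1529), array weights (2254), median centring (2125), quantile normalization (2177) and all probe sets of a gene averaged (2099). It was 1398 with the acinar level as a covariate, 625 with a difference of at least 1 as well, 367 without both untreated replicate 1 arrays, and 652 to 2639 without any 1 of the 8 arrays. With the replicate block the counts were 2435 on plain water (2154 shared with the fit without it), 176 under tungstate and 3 for the difference between treatments. The replicate numbers share only a number, since the labels name no pairing. The correlation of same-numbered deviations was 0.42 on plain water and -0.07 under tungstate, over 2 pairs each. The 3 genes that differed between treatments became 6 without both untreated replicate 1 arrays and 0 to 12 without any 1 array. The 137 genes under tungstate became 224 with the variance trend, 77 with probe sets averaged, 284 with the acinar covariate, 80 with a difference of at least 1, and 3 to 679 without any 1 array. Leaving out an array lowered some counts and raised others, and the cause of these changes was not tested. Of 174 named genes whose calls were followed, 0 were reversed under any setting. The sign of a named gene that did not pass could depend on an array. Ddit3 read 9.02 and 8.86 on the untreated WT arrays and 9.72 and 8.41 on the Irs2-/- arrays, above both and below both. Many of the 174 lost their call when untreated arrays were left out, most often without both untreated replicate 1 arrays, and 15 with only the 4 untreated arrays. With the acinar covariate 17 did: Adgre1, Bcl6, Col4a2, Edn3, Fabp4, Gal, Hadh, Hhex, Insr, Mt3, Naxd, Nnt, Npas4, Pcsk1, Pcsk1n, Per2 and Prss3. The difference of Prss3 was then 3.43.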

Other observations

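Against 16.8% of all genes past the test, the share was 36.8% of the hypoxia targets, 26.1% of fatty acid oxidation, 27.8% of prolactin signalling, 17.6% of the antioxidant and 9.68% of the apoptosis list. These counts moved with the arrays used: without any 1 of the 4 untreated arrays 2 to 4 hypoxia targets, 1 to 3 oxidation, 1 to 2 prolactin, 1 to 4 antioxidant and 0 to 5 apoptosis genes rose. Of 19 hypoxia targets 6 rose and 1 fell. Those that rose included Ldha, Pfkfb3 and Pdk1, whereas Vegfa, the angiogenic factor that islets make in large amounts, fell by 0.90 ± 0.17, from 10.15 and 10.08 to 9.11 and 9.31. Of 34 antioxidant and glutathione genes 5 rose and 1 fell, among them Gpx3, a secreted glutathione peroxidase, at 10.49 and 10.47 against 12.36 and 12.11, and Prdx4, a peroxiredoxin of the endoplasmic reticulum, which rose by 1.29 ± 0.23. Of 31 apoptosis regulators 3 rose and 0 fell. Casp1, the inflammasome caspase, rose by 1.64 ± 0.35, and Bcl2, which protects cells from death, by 1.02 ± 0.26. Of 23 genes of fatty acid oxidation 4 rose and 2 fell. Eci2, an isomerase for unsaturated fatty acids, rose by 0.98 ± 0.14 in every fit without an array, and Cpt1a, the entry step of mitochondrial oxidation, by 0.88 ± 0.17, while Hadh, a dehydrogenase of the same route that is abundant in beta cells, fell by 1.04 ± 0.23. Of 18 genes of prolactin, growth hormone and STAT5 signalling 3 rose, Csn3, Igf1 and Bcl6, and 2 fell.

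Of 33 genes of the TGF-beta family 3 rose and 2 fell (15.2%), and the robust one was Fst, the activin antagonist follistatin, at 4.98 and 4.79 on the WT arrays and 6.74 and 7.77 on the Irs2-/- arrays. Of 31 Wnt and Notch genes 2 rose and 3 fell (16.1%), and the robust one was Sfrp5, a secreted Wnt antagonist, at 8.24 and 7.98 against 6.41 and 6.95. Both shares lie close to that of all genes. Of 6 neutrophil and mast cell markers 1 rose (16.7%), and of 13 markers of Schwann cells and neurons 2 rose (15.4%), against 16.8% of all genes past the test. Robust genes on none of the lists included Serpinb1a, a protease inhibitor, at 6.00 and 5.33 against 8.82 and 8.72, and the water channel gene Aqp4, at 7.70 and 7.28 against 9.84 and 9.56. Among the falls were Prss53, a serine protease, at 11.04 and 11.26 against 9.15 and 9.29, and Olfm4, olfactomedin 4, at 10.38 and 10.27 against 8.01 and 8.25. In each of these 4 genes the arrays of the genotypes were apart by more than 1.5 units.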
